A study of Mus musculus with 15 samples.

Results

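The genes described here are 9 CC chemokines and chemokine receptors that serve monocytes and eosinophils, out of 27174 genes in a table of mouse brain microvessels. The 6 ligands are Ccl2, Ccl3, Ccl4, Ccl7, Ccl8 and Ccl12, and the 3 receptors are Ccr1, Ccr2 and Ccr3. They were picked by symbol, with scores of these same libraries already known, and which comparison was in view is not recorded. Each p-value below therefore sets a difference against the spread between libraries and is no independent evidence for the choice of genes.

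Microvessels were isolated from the brains of adult wild-type BL6/57 mice in 5 groups of 3 libraries, each library a pool of 3 mice. Triple therapy libraries came from the tumour region of mice given aflibercept, AMG386 and an antibody against PD-1 (anti-PD1), and dual therapy libraries from the tumour region of mice given aflibercept and AMG386. Untreated tumour libraries were made from tumour-region vessels of mice that received control IgG, contralateral libraries from the opposite, tumour-free side of mice that received control IgG, and sham libraries from healthy mice with a sham operation. Vessels of the tumour-bearing mice were taken 21 days after tumour cells were transplanted. Aflibercept is a decoy receptor that binds VEGF, and AMG386 is a peptibody that neutralises angiopoietins. Which tumour cells were transplanted is not stated in the labels. Contralateral vessels of treated mice and anti-PD1 given alone were not analysed here.

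Chemokines are small secreted proteins that bind G protein-coupled receptors on leukocytes and guide them along a gradient and across the vessel wall. Ccl2, Ccl7 and Ccl12 act on Ccr2, the receptor that brings inflammatory monocytes out of the bone marrow and into tissue. Ccl3 and Ccl4 are macrophage inflammatory proteins, of which Ccl3 acts on Ccr1. Ccr3 is the eotaxin receptor of eosinophils, and Ccl8 in mouse is best known as a ligand of Ccr8. In brain vessels such ligands can come from endothelium, pericytes and the macrophages that line the vessel.

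The values are the authors' normalised scores, which behave as read numbers scaled by 1 factor per library and then rounded. Score sums lay between 11134670 and 15799111, and estimated depth between 6367614 and 18319546 reads. In bulk RNA of this kind, fewer cells of a type and less RNA per cell cannot be told apart. The 15 endothelial identity markers summed to 83795 to 103156 in triple therapy libraries, 88860 to 104388 in dual therapy libraries, 60420 to 83470 in untreated tumour libraries, 95963 to 105921 in contralateral libraries and 96266 to 101857 in sham libraries, with the lowest sums in untreated tumour. Among the 15 libraries, untreated tumour replicate 2 stood apart in the share of mitochondrial ribosomal RNA (33.2%, against 21.5% and 22.4% in the other untreated tumour libraries and 9.55% to 17.4% elsewhere). Dual therapy replicate 2 (66.4) and untreated tumour replicate 1 (-51.8) stood apart at the 2 ends of the second principal component, which held 8.86% of the variance. The other libraries lay between -23.3 and 38.7 on it. Untreated tumour replicate 1 also had the lowest endothelial identity sum, 60420. Where a call of the 9 genes was lost without any 1 of these libraries, this is said beside it.

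The 6 ligand genes sit in a cluster on chromosome 11 and the 3 receptor genes in another on chromosome 9 (GRCm38). Ccl2 spans chr11:82035571-82037453, Ccl7 chr11:82045712-82047525, Ccl12 chr11:82101845-82103400 and Ccl8 chr11:82115185-82116799, all on the plus strand. Ccl3 (chr11:83647844-83649355, minus strand) and Ccl4 (chr11:83662584-83664683, plus strand) lie farther along. Ccr1 spans chr9:123962124-123968692 on the minus strand, Ccr3 chr9:124021972-124031689 and Ccr2 chr9:124101950-124113557 on the plus strand. The antisense gene Gm17268 overlaps Ccl2, and the strand setting of the counting is not stated, so reads of the 2 cannot be told apart. Ccr2 shares 110 of its 6758 exonic stretches of 50 bases with 1 other gene, and 1 to 19 with each of several more. The exons of the other 8 genes share none with another gene.

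The promoters of the genes on which the results turn are given below as the 250 bases before the gene start, from RefSeq sequence of GRCm38.p6, which held a window for 6 of the 9 genes. Ccl8 and Ccl12 are shown as neighbouring ligand genes of which Ccl8 rose and Ccl12 overlapped between triple therapy and untreated tumour, and Ccr3 as the receptor that fell. The windows lie at chr11:82114935-82115184 for Ccl8, chr11:82101595-82101844 for Ccl12 and chr9:124021721-124021970 for Ccr3, all on the plus strand, and capitals mark motif matches on either strand.
Ccl8: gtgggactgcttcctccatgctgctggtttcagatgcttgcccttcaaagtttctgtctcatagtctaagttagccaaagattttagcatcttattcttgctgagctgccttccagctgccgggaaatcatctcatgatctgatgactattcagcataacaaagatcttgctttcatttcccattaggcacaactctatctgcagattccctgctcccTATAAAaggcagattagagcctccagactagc
Ccl12: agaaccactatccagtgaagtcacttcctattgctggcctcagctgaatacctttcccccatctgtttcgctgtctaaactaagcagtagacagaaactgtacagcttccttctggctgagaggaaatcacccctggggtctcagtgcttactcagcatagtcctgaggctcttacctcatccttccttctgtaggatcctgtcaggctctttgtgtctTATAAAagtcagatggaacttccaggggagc
Ccr3: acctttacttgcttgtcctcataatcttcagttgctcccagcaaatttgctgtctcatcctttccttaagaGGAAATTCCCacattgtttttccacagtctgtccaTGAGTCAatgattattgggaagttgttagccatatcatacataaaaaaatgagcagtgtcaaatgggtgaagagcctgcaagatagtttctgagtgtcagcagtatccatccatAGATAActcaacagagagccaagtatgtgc
Both ligand promoters hold a TATA box (TATAAA), 32 bases before the start in Ccl8 and 31 in Ccl12, a word present in 13.6% of 32851 promoter windows of 250 bases before to 50 after the start. Aligned over such windows, Ccl8 and Ccl12 were identical at 57.4% of positions, against 48.3% to 54.1% for the other pairs of the 6 genes. The Ccr3 promoter has no TATAAA. It holds a kappaB-like word (GGG and CC with any 5 bases between) 179 bases before the start, found in 50.8% of windows, an AP-1 word (TGANTCA) 144 bases before it, found in 7.81%, and a GATA word (AGATAA) 30 bases before it, found in 11.2%. The interferon response word searched, GAAA and GAAA with any 2 bases between (3.44% of windows), was not found in any of the 6 windows. These are matches of letters, without evidence of binding.

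Of the 9 genes, 8 reached a score of 10 in 3 or more libraries and were tested with limma on log2(score + 1), with p-values adjusted over 19668 genes. Ccl3 reached 10 in only 2 libraries and is given as values. Ccl4 and Ccr3 reached 10 in 5 and 6 libraries, all of them tumour libraries without PD-1 blockade, so passing the filter itself depended on those groups. Counts of calls below that include Ccl4 or Ccr3 depend in part on that filter.

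Untreated tumour vessels carried more transcript of these genes than vessels without tumour. Against contralateral vessels 6 of the 8 tested genes rose and none fell, where 21.1% of all tested genes rose (4147 genes, with 4207 that fell, and 5428 and 2376 when libraries were scaled to endothelial identity genes). Against sham vessels all 8 rose, where 23.3% of all tested genes did. The median log2 fold change of the 8 was 2.28 against contralateral and 3.74 against sham vessels, and that of all tested genes 0.01 and 0.03. Both comparisons use the same untreated tumour libraries. Markers of leukocytes changed in untreated tumour against contralateral vessels as well. Of 7 tested monocyte markers 6 rose and F13a1 fell, and of 7 dendritic cell markers 4 rose and Zbtb46 fell. All 5 tested neutrophil markers and 11 of 12 markers of T and NK cells rose. Macrophage and microglia markers were mixed: of 11 macrophage markers 5 rose and 4 fell, and of 9 microglia markers 3 rose and 3 fell. The marker sums of T and NK cells were 953 to 1060 in untreated tumour libraries, 73 to 162 in contralateral libraries and 61 to 117 in sham libraries, and their part in the rise of the 8 genes was not tested.

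**Figure D1:**
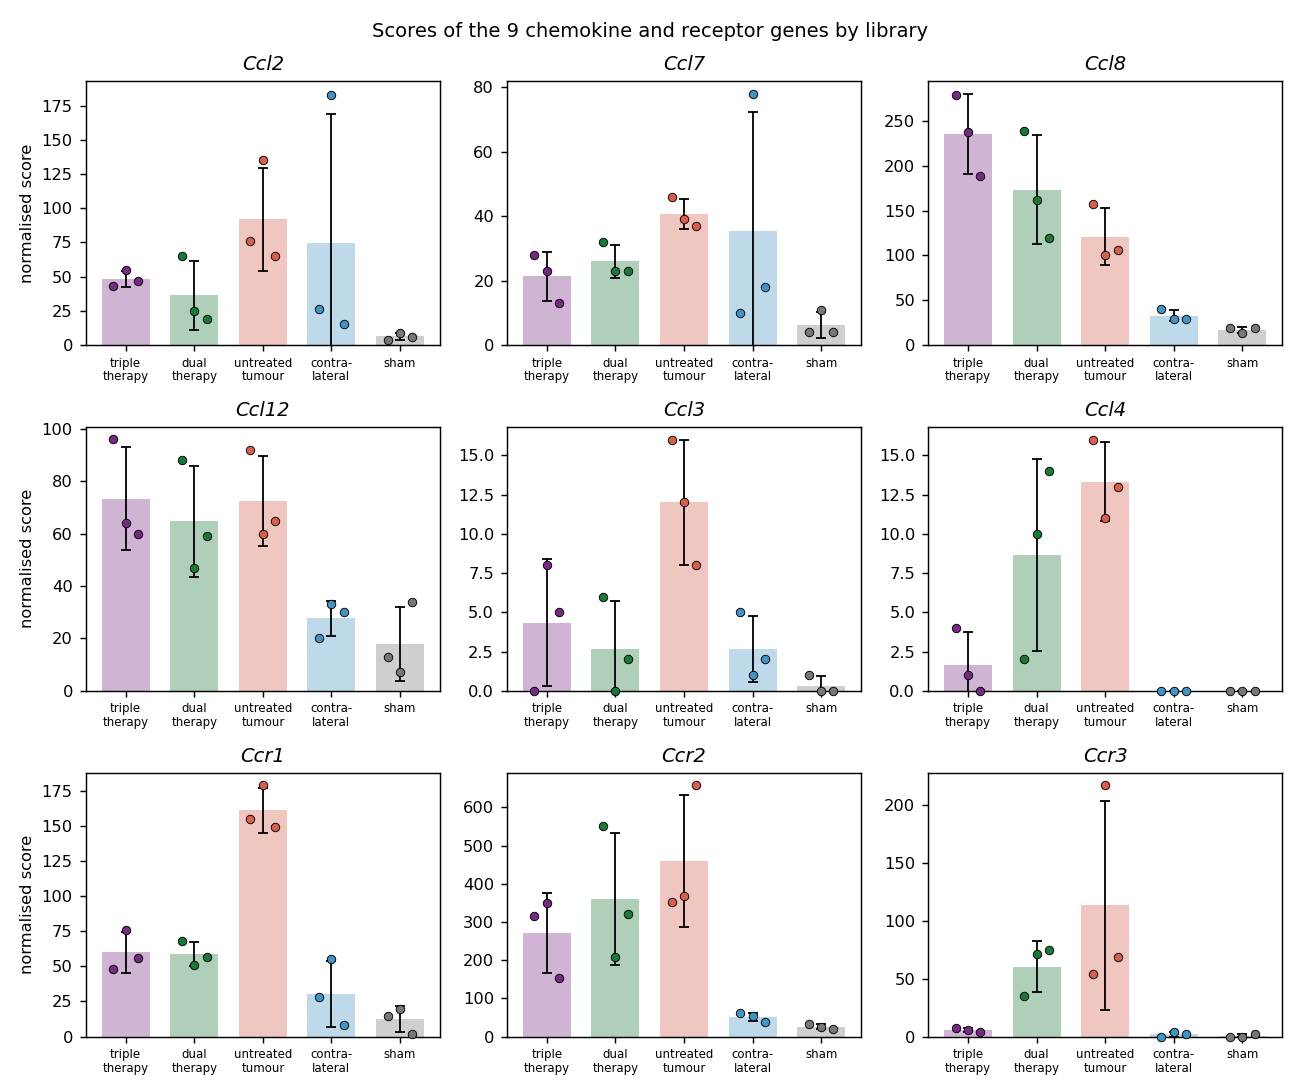
Normalised score of each of the 9 genes (vertical axis, linear, starting at 0) in the 5 groups (horizontal axis). Points are libraries, bars are means and error bars are SD over 3 libraries, ending at 0 where they would pass below it. Ccr3 is at 4 to 7 in triple therapy libraries and at 35 to 217 in dual therapy and untreated tumour libraries, Ccl8 is highest under triple therapy, and contralateral replicate 2 is the single high point of Ccl2 and Ccl7 in that group.

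Ccr2, the monocyte receptor, scored 351, 369 and 658 in untreated tumour libraries, against 61, 54 and 39 in contralateral and 33, 26 and 19 in sham libraries. The untreated tumour libraries lay above all others of these groups, with no overlap. Ccr2 rose by 3.10 ± 0.35 (log2, SE) against contralateral vessels (limma adjusted p = 1.70e-06) and by 4.06 ± 0.35 against sham vessels (limma adjusted p = 4.58e-08). Ccr1, which binds Ccl3 and other macrophage inflammatory proteins, scored 155, 179 and 149 in untreated tumour libraries, against 28, 55 and 8 in contralateral and 15, 20 and 2 in sham libraries. Its groups did not overlap either, and it rose by 2.72 ± 0.61 against contralateral vessels (limma adjusted p = 0.00138).

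Ccr3, the eotaxin receptor, scored 54, 217 and 69 in untreated tumour libraries, against 0, 4 and 2 in contralateral and 0, 0 and 2 in sham libraries. The lowest tumour library was far above the highest tumour-free one, and untreated tumour replicate 2 was the highest of its group. The rise against contralateral vessels was 5.26 ± 0.67 (log2, limma adjusted p = 6.51e-06). Untreated tumour libraries held 358 estimated reads in all and sham libraries 2, a ratio of levels of 166 with a 95% counting interval of 45.5 to 1374 that does not include the spread between pools. Of these reads 248 came from untreated tumour replicate 2, and without that library the ratio was 84.2 (22.8 to 704).

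Ccl8, also called monocyte chemotactic protein-2, scored 157, 100 and 106 in untreated tumour libraries, against 40, 29 and 29 in contralateral and 19, 13 and 19 in sham libraries. The 3 groups did not overlap, and contralateral libraries also lay above sham libraries. Ccl8 rose by 1.84 ± 0.28 against contralateral vessels (log2, limma adjusted p = 3.56e-05). Ccl12, a mouse ligand of Ccr2, scored 92, 60 and 65 in untreated tumour libraries, against 20, 33 and 30 in contralateral and 13, 7 and 34 in sham libraries. It rose by 1.36 ± 0.43 against contralateral vessels (limma adjusted p = 0.0149), a call that was lost without untreated tumour replicate 1 (adjusted p = 0.0641) or contralateral replicate 1 (adjusted p = 0.0674).

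Ccl4 was listed at 0 in all contralateral and sham libraries and at 16, 11 and 13 in untreated tumour libraries. With a floor of 3 reads over the 3 contralateral libraries, its level was at least 12-fold higher in untreated tumour, and the limma adjusted p was 0.000872. Ccl3 scored 16, 12 and 8 in untreated tumour libraries, against 5, 1 and 2 in contralateral and 1, 0 and 0 in sham libraries. Its untreated tumour libraries lay above all tumour-free libraries, but 34 estimated reads in the group leave it near the limit of this depth.

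Ccl2 and Ccl7, neighbouring monocyte chemoattractants, were both high in 1 contralateral library. Ccl2 scored 76, 135 and 65 in untreated tumour libraries, against 26, 183 and 15 in contralateral and 4, 9 and 6 in sham libraries. Ccl7 scored 46, 39 and 37 in untreated tumour libraries, against 10, 78 and 18 in contralateral and 4, 11 and 4 in sham libraries. Contralateral replicate 2 exceeded every untreated tumour library for both genes, so the groups overlapped. Against contralateral vessels the differences were 1.04 ± 0.65 for Ccl2 (log2, limma adjusted p = 0.210) and 0.70 ± 0.57 for Ccl7 (limma adjusted p = 0.341). Without that library they were 2.09 (adjusted p = 0.00301) and 1.52 (adjusted p = 0.0222), and both genes then passed the test. Against sham vessels both rose with all libraries in the fit, Ccl2 by 3.65 ± 0.65 (limma adjusted p = 0.000149) and Ccl7 by 2.63 ± 0.57 (limma adjusted p = 0.000948).

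Between contralateral and sham vessels none of the 8 tested genes passed the test, where 0.432% of all tested genes did, and at an unadjusted p below 0.05 limma found 5 of the 8 and 11.9% of all tested genes. The comparison shares the contralateral libraries with the one above. Ccl2 differed by 2.61 ± 0.65 on the log2 scale (limma adjusted p = 0.0845), with contralateral scores of 26, 183 and 15 against sham scores of 4, 9 and 6, which do not overlap, and by 1.56 without contralateral replicate 2 (adjusted p = 0.230). It passed the test without contralateral replicate 3 (3.32 ± 0.64, adjusted p = 0.0334) and with array weights (2.10 ± 0.53, adjusted p = 0.0355). Ccl8 and Ccr2 did not overlap between these groups either (0.91 ± 0.28, limma adjusted p = 0.164 for Ccl8, and 0.96 ± 0.35, limma adjusted p = 0.258 for Ccr2), where 8.5% of all tested genes were higher without overlap. In contralateral replicate 2, other genes stood above the rest of its group as well: Ccl9 at 273 against 114 and 61, the monocyte marker Cd14 at 183 against 117 and 49, and the NF-kappaB target Tnfaip3 at 462 against 197 and 158. The other tested monocyte markers were mixed there. Chil3 (36 against 10 and 12), Ly6c2 (6 against 3 and 3) and Vcan (509 against 475 and 410) were higher. Plac8 (2 against 9 and 2), Ms4a4c (9 against 11 and 9) and F13a1 (1117 against 1447 and 1217) were not. The part of all these genes in the Ccl2 and Ccl7 values was not tested.

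Triple therapy vessels differed from untreated tumour vessels in both directions. Of the 8 tested genes, Ccl8 rose and Ccl4 and Ccr3 fell, where 17.2% of all tested genes rose and 15% fell (3390 and 2950 genes, and 1708 and 4211 when libraries were scaled to endothelial identity genes). That scaling kept the direction of the 8 genes except Ccl12, which was at 0.01 without it and at -0.23 with it, neither called. Another 4, Ccl2, Ccl7, Ccr1 and Ccr2, lay below untreated tumour in every library without passing the test, so that 6 of 8 were lower without overlap, where 22.5% of all tested genes were. The median log2 fold change of the 8 was -0.90, and that of all tested genes -0.02. Ccl4 and Ccr3, counted here as lower, passed the filter only through untreated tumour and dual therapy libraries. These counts therefore include genes that were tested because they were high in the group compared.

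**Figure D2:**
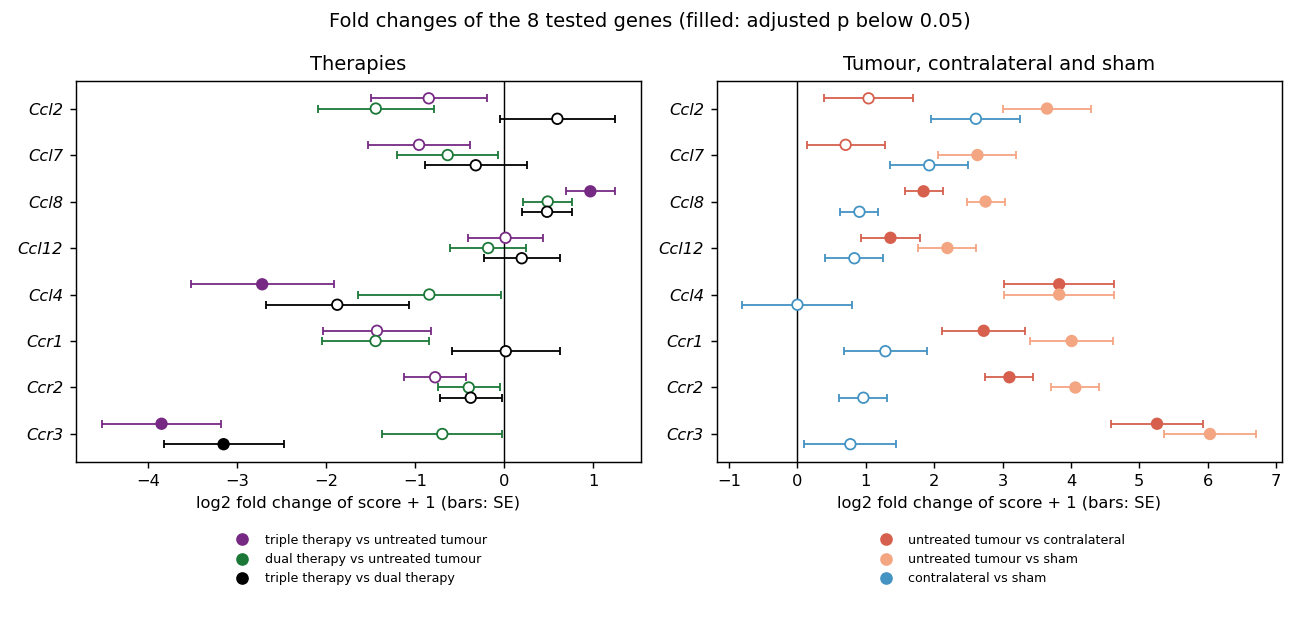
Log2 fold change of score + 1 for the 8 tested genes (horizontal axis), with SE bars, for the therapies on the left and for tumour, contralateral and sham vessels on the right. Filled points have a limma adjusted p below 0.05. On the left Ccl8 is the only filled point above 0, at 0.97, and Ccr3 lies lowest under triple therapy, at -3.85. On the right all points of untreated tumour against sham vessels are filled.

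Ccr3 showed the largest difference of the 8 tested genes between triple therapy and untreated tumour. It scored 7, 6 and 4 in triple therapy libraries, 35, 71 and 75 in dual therapy libraries and 54, 217 and 69 in untreated tumour libraries. The 3 triple therapy libraries were within 3 units of each other and below every dual therapy and untreated tumour library, while dual therapy and untreated tumour overlapped. Ccr3 fell by 3.85 ± 0.67 (log2) under triple therapy against untreated tumour (limma adjusted p = 0.000318). Against dual therapy it fell by 3.15 ± 0.67 (limma adjusted p = 0.0359), and it was the only called gene of the 8 between the therapies, where 0.346% of all tested genes fell. Dual therapy against untreated tumour gave -0.70 ± 0.67 (limma adjusted p = 0.498). The comparisons share groups, so the 3 values are not independent of each other.

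The Ccr3 call between the therapies was close to the threshold. With untreated tumour replicate 2 and dual therapy replicate 2 left out it was -3.00 (adjusted p = 0.0853), and it was also lost without any 1 of the triple therapy libraries (adjusted p = 0.0783 to 0.117), without dual therapy replicate 2 (adjusted p = 0.157) and without dual therapy replicate 3 (adjusted p = 0.0796). With 22 estimated reads over the triple therapy libraries and 205 over the dual therapy libraries, the direction was the same in each of these fits. The call against untreated tumour held in all alternatives run.

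Ccl8 was the only one of the 8 tested genes that rose under triple therapy against untreated tumour. It scored 279, 238 and 189 in triple therapy libraries, 239, 162 and 119 in dual therapy libraries and 157, 100 and 106 in untreated tumour libraries. Triple therapy lay above untreated tumour with no overlap, and dual therapy overlapped with both. Against untreated tumour Ccl8 rose by 0.97 ± 0.28 under triple therapy (log2, limma adjusted p = 0.0124), and its difference under dual therapy was 0.49 ± 0.28 (limma adjusted p = 0.226). The therapies differed by 0.48 ± 0.28 (limma adjusted p = 0.450). The triple therapy call was lost without triple therapy replicate 1 (0.83, adjusted p = 0.0655) and when libraries were scaled to the endothelial identity genes (0.72, adjusted p = 0.0981), a scaling that moved the median of all genes by -0.25. Of 11 macrophage markers, Mrc1, Cd163, Lyve1 and Pf4 rose and Msr1 fell under triple therapy against untreated tumour. The Pf4 call was lost without untreated tumour replicate 2 (adjusted p = 0.117), and those of Pf4 and Lyve1 without other single libraries. In untreated tumour against contralateral vessels, where Ccl8 rose, Mrc1, Cd163, Lyve1 and Spp1 fell and Cd68, Adgre1, Arg1, Gpnmb and Msr1 rose. The summed score of the 11 markers was 6273 to 7014 in triple therapy libraries and 4365 to 7093 in untreated tumour libraries. Their part in the Ccl8 value was not tested.

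Ratios of 2 genes within a library do not depend on how libraries were scaled. Ccl8 over Ccl7 was 9.96, 10.3 and 14.5 in triple therapy libraries, 7.47, 7.04 and 5.17 in dual therapy libraries and 3.41, 2.56 and 2.86 in untreated tumour libraries, with no overlap among the 3 groups. Ccl8 over Ccl12 was 2.91, 3.72 and 3.15 in triple therapy libraries, 2.72, 3.45 and 2.02 in dual therapy libraries and 1.71, 1.67 and 1.63 in untreated tumour libraries. Both therapies lay above untreated tumour, and overlapped with each other. Ccr3 over Ccr2 was 0.0222, 0.0172 and 0.0261 in triple therapy libraries, 0.0636, 0.340 and 0.233 in dual therapy libraries and 0.154, 0.588 and 0.105 in untreated tumour libraries. Relative to Ccr2, Ccr3 was lower in each triple therapy library than in any dual therapy or untreated tumour library. These ratios were chosen after the scores were seen and have no test.

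**Figure D3:**
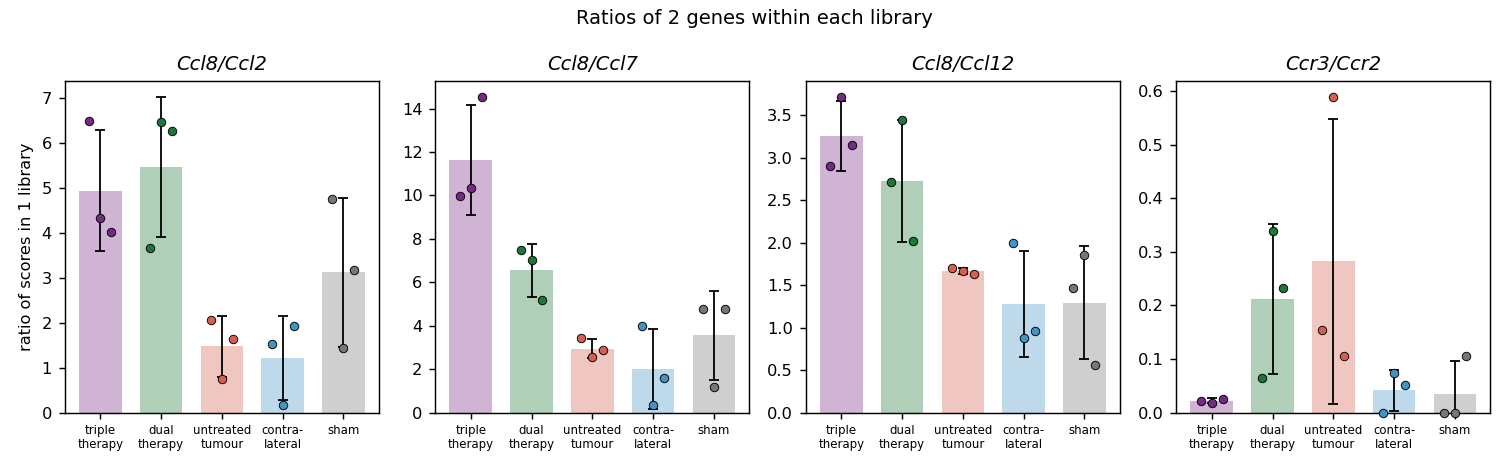
Ratio of the scores of 2 genes in the same library (vertical axis, linear, starting at 0) for Ccl8 over Ccl2, Ccl7 and Ccl12 and for Ccr3 over Ccr2, in the 5 groups (horizontal axis). Points are libraries, bars are means and error bars are SD over 3 libraries. Ccl8 over Ccl7 is 9.96 to 14.5 in triple therapy, 5.17 to 7.47 in dual therapy and 2.56 to 3.41 in untreated tumour libraries.

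Ccr1 scored 48, 76 and 56 in triple therapy libraries, 68, 51 and 57 in dual therapy libraries and 155, 179 and 149 in untreated tumour libraries. The highest treated library, at 76, lay below the lowest untreated one, at 149, and the therapies overlapped. The differences against untreated tumour were -1.43 ± 0.61 for triple therapy (log2, limma adjusted p = 0.0792) and -1.45 ± 0.61 for dual therapy (limma adjusted p = 0.0949), in a fit whose error is shared by all 5 groups. With only the 6 libraries compared, both passed the test (limma adjusted p = 0.00167 for triple therapy and 0.00397 for dual therapy), and they also passed without sham replicate 3, where Ccr1 scored 2 (adjusted p = 0.0234 for triple therapy and 0.0314 for dual therapy).

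Ccr2 scored 315, 349 and 153 in triple therapy libraries, 550, 209 and 322 in dual therapy libraries and 351, 369 and 658 in untreated tumour libraries. Triple therapy lay just below untreated tumour in all libraries (-0.78 ± 0.35, limma adjusted p = 0.0991), and dual therapy overlapped with it (-0.40 ± 0.35, limma adjusted p = 0.450). Monocyte markers were mixed: against untreated tumour, Chil3, Vcan and Cd14 of 7 tested fell and F13a1 rose under triple therapy, and Vcan fell under dual therapy. The other tested markers, Ly6c2, Plac8 and Ms4a4c, were called under neither therapy. The triple therapy calls of Cd14 and F13a1 were lost without triple therapy replicate 3 (adjusted p = 0.0860 and 0.107) or untreated tumour replicate 1 (0.0745 and 0.0887), and that of Cd14 also without triple therapy replicate 1 (0.0722). The 8 markers summed to 2638 to 3006 in triple therapy libraries, 2209 to 2885 in dual therapy libraries, 3859 to 7229 in untreated tumour libraries, 1702 to 2073 in contralateral libraries and 1514 to 1593 in sham libraries. Much of these sums was Vcan, at 1300 to 1479 in triple therapy, 745 to 1199 in dual therapy and 2004 to 5629 in untreated tumour libraries. F13a1, also a large part, went the other way, at 664 to 961 in untreated tumour and 1117 to 1447 in contralateral libraries. In sham libraries Vcan scored 460 to 583 and F13a1 933 to 1016, while Ly6c2, Plac8 and Ms4a4c did not pass 14 there. High Vcan or F13a1 was thus not tied to the other monocyte markers, and the sums do not describe the markers alike. The part of monocyte markers in the Ccr2 values was not tested.

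Of the other ligands, Ccl4 fell under triple therapy and the rest did not pass the test or were not tested. Ccl2 scored 43, 55 and 47 in triple therapy libraries, 65, 25 and 19 in dual therapy libraries and 76, 135 and 65 in untreated tumour libraries. Its differences against untreated tumour were -0.85 ± 0.65 for triple therapy (log2, limma adjusted p = 0.340) and -1.44 ± 0.65 for dual therapy (limma adjusted p = 0.120). Without contralateral replicate 2, Ccl2 passed the test for dual therapy (adjusted p = 0.0269). Ccl7 scored 28, 23 and 13 in triple therapy libraries, 32, 23 and 23 in dual therapy libraries and 46, 39 and 37 in untreated tumour libraries. Both therapies lay below untreated tumour without overlap, at -0.96 ± 0.57 for triple therapy (limma adjusted p = 0.213) and -0.64 ± 0.57 for dual therapy (limma adjusted p = 0.461).

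Ccl12 scored 96, 64 and 60 in triple therapy libraries, 88, 47 and 59 in dual therapy libraries and 92, 60 and 65 in untreated tumour libraries. The groups overlapped throughout, and the triple therapy difference from untreated tumour was 0.01 ± 0.43 (log2, limma adjusted p = 0.986). Ccl4 scored 4, 1 and 0 in triple therapy libraries, 2, 10 and 14 in dual therapy libraries and 16, 11 and 13 in untreated tumour libraries. It fell by 2.72 ± 0.80 under triple therapy against untreated tumour (limma adjusted p = 0.0147), on 5 estimated reads in triple therapy and 38 in untreated tumour libraries, and the call was lost without triple therapy replicate 3 (adjusted p = 0.0834) or untreated tumour replicate 1 (adjusted p = 0.0546). Ccl3 scored 0, 8 and 5 in triple therapy libraries, 6, 0 and 2 in dual therapy libraries and 16, 12 and 8 in untreated tumour libraries.

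For dual therapy against untreated tumour none of the 8 genes passed the test, where 22.3% of all tested genes did (2376 rose and 2001 fell, and 739 and 3294 when libraries were scaled to endothelial identity genes). Limma gave an unadjusted p below 0.05 for Ccl2 and Ccr1, and for 34.9% of all tested genes. With voom on approximate reads 1 of the 8, Ccr1, passed.

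Both treated groups had scores above those of tumour-free vessels for several genes. Against contralateral vessels, Ccl8 and Ccr2 rose under triple therapy, where 4.15% of all tested genes rose. Under dual therapy Ccl4, Ccl8, Ccr2 and Ccr3 rose, where 6.91% of all tested genes did. The Ccl4 call was lost without dual therapy replicate 2 (adjusted p = 0.0679), dual therapy replicate 3 (0.0800) or contralateral replicate 3 (0.0548), and with quantile normalisation (0.118). Ccl8 was higher by 2.81 ± 0.28 under triple therapy (log2, limma adjusted p = 6.64e-06) and by 2.33 ± 0.28 under dual therapy (limma adjusted p = 1.94e-05). Ccr3 was higher by 1.41 ± 0.67 under triple therapy (limma adjusted p = 0.326), with scores of 7, 6 and 4 against 0, 4 and 2 in contralateral libraries, and by 4.56 ± 0.67 under dual therapy (limma adjusted p = 0.000157). Against sham vessels 6 of the 8 rose under triple therapy, where 5.49% of all tested genes rose, and all 8 under dual therapy, where 8.8% did. The call for Ccr3 under triple therapy against sham vessels (2.18 ± 0.67, limma adjusted p = 0.0473) was lost with voom on approximate reads (adjusted p = 0.465), with a pseudocount of 5 (adjusted p = 0.234), without dual therapy replicate 2 (adjusted p = 0.0545) and in other fits, that for Ccl2 with voom (adjusted p = 0.118) and that for Ccr1 without sham replicate 3 (adjusted p = 0.0593). Under dual therapy against sham vessels, the calls for Ccl2 and Ccl7 were lost with voom (adjusted p = 0.194 and 0.0708) and without dual therapy replicate 1, sham replicate 1 or sham replicate 3 (adjusted p = 0.0610 to 0.114 for Ccl2 and 0.0645 to 0.0788 for Ccl7). The Ccl4 call was lost without dual therapy replicate 3 (adjusted p = 0.0607), with quantile normalisation (0.123) and with dual therapy replicate 2 and untreated tumour replicate 2 both left out (0.0544).

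Per kilobase of exon, Ccl8 had the highest mean score of the 9 in each tumour group, at 461 in triple therapy, 339 in dual therapy and 237 in untreated tumour libraries, against 63.9 in contralateral libraries. In untreated tumour libraries Ccl12 (135), Ccl2 (80.8), Ccr2 (67.9), Ccr1 (56.8), Ccl7 (50.8), Ccr3 (34.6), Ccl4 (20.2) and Ccl3 (15.7) followed on that scale. In triple therapy libraries Ccr3 was lowest, at 1.73 per kilobase. By group means Ccl8 was highest in triple therapy, then dual therapy, untreated tumour, contralateral and sham vessels, where untreated tumour and contralateral, and contralateral and sham libraries, did not overlap and the other neighbours did. The order of Ccr3 was untreated tumour, dual therapy, triple therapy, contralateral and sham vessels, and the only neighbours in that order without overlap were dual and triple therapy.

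Likeness between genes was measured as the mean absolute difference of log2(score + 1), each centred on its own mean, over the 15 libraries. The closest pairs among the members were Ccl8 and Ccr2 (0.56), Ccl8 and Ccl12 (0.57) and Ccl2 and Ccl7 (0.58), and Ccr3 was 0.95 to 1.78 from every other member. Other tested genes were searched if their mean score was at least 50. Genes with Gm, Rik or accession-like names were left out, as were the genes not reported here. Among those searched, the genes most like Ccr2 were Ifi209, Csf2rb and Ptprc (0.24 to 0.26). Those most like Ccl8 were Mpeg1, Psd4 and Gbp6, with Mpeg1, a pore-forming protein of macrophages, at 0.43. The gene most like Ccl2 was Ccl9 (0.53), and Socs3 was among the nearest 3 of both Ccl2 and Ccr1. Of the genes searched, Il1b (0.84), Gzma (0.91) and Clec7a (1.01) came first for Ccr3. The eosinophil markers Siglecf, Alox15 and Ear2 lay below a mean score of 50 and were outside this search, so it cannot show whether a closer gene exists. The points share libraries and depth, and the values are descriptions.

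Eosinophil markers were set beside Ccr3. Of 9 markers 6 were in the table, and their summed score was 26 to 39 in triple therapy libraries, 52 to 78 in dual therapy libraries, 58 to 238 in untreated tumour libraries, 16 to 31 in contralateral libraries and 12 to 23 in sham libraries. The sum under triple therapy thus lay below dual therapy and untreated tumour with no overlap. Its separation from dual therapy rested on Ear2, the only 1 of the 6 markers that by itself separated triple from dual therapy. Without Ear2 the sums of the therapies overlapped. Ear2 scored 13, 12 and 16 in triple therapy, 27, 26 and 23 in dual therapy and 19, 38 and 57 in untreated tumour libraries, and 7 to 22 in tumour-free libraries. It was not called in untreated tumour against contralateral vessels. The other markers overlapped between the therapies. The genes of granule proteins were near 0 throughout: Epx, eosinophil peroxidase, reached at most 5 and Prg2, major basic protein, at most 4 in any library. Siglecf, a lectin of eosinophils and some macrophages, scored 3, 20 and 6 in triple therapy libraries, 28, 6 and 16 in dual therapy libraries and 18, 85 and 31 in untreated tumour libraries. Its difference under triple therapy from untreated tumour was -2.16 ± 0.82 (log2, limma adjusted p = 0.0517).

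Alox15, a lipoxygenase of eosinophils and macrophages, scored 6, 5 and 1 in triple therapy libraries, 1, 11 and 31 in dual therapy libraries and 12, 100 and 17 in untreated tumour libraries, and was listed at 0 in all tumour-free libraries. It fell under triple therapy against untreated tumour (-2.71 ± 0.95, limma adjusted p = 0.0356), as did Ear2 (-1.29 ± 0.44, limma adjusted p = 0.0317). Without untreated tumour replicate 2 neither passed the test, at -1.80 for Alox15 (adjusted p = 0.183) and -1.22 for Ear2 (adjusted p = 0.0685), and both calls were also lost without other single libraries. Untreated tumour replicate 2 was highest of all 15 libraries for Ccr3, Siglecf and Alox15, and also for the eotaxin Ccl24, at 165. None of the 3 tested markers passed the test between triple and dual therapy. The part of eosinophil number in the Ccr3 values was not tested.

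**Figure D4:**
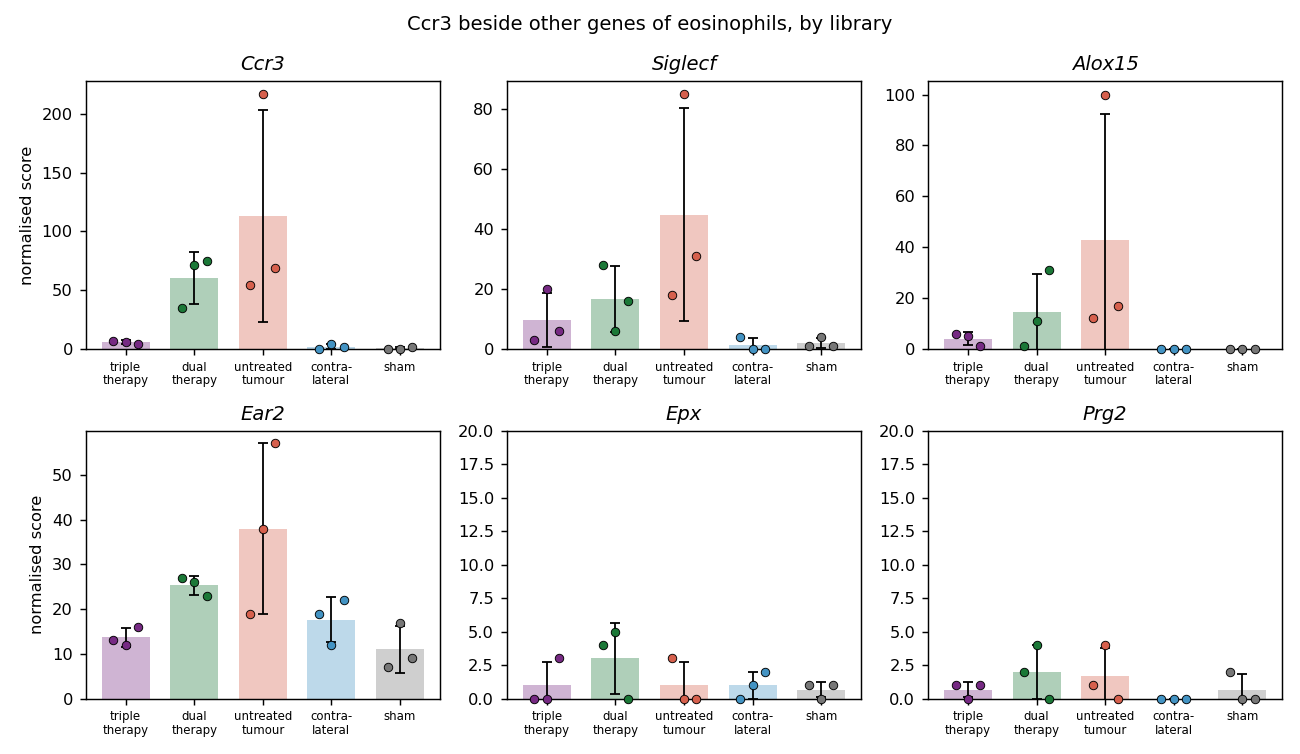
Normalised score (vertical axis, linear, starting at 0) of Ccr3 and of 5 eosinophil markers in the 5 groups (horizontal axis). Points are libraries, bars are means and error bars are SD over 3 libraries, ending at 0 where they would pass below it. Untreated tumour replicate 2 is the highest point for Ccr3 (217), Siglecf (85) and Alox15 (100), while Epx and Prg2 do not pass 5 in any library.

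The eotaxins, ligands of Ccr3, are not among the 9 genes. Ccl11 (eotaxin-1) scored 60, 119 and 83 in triple therapy libraries, 141, 168 and 131 in dual therapy libraries, 284, 86 and 123 in untreated tumour libraries, 15, 3 and 7 in contralateral libraries and 5, 7 and 4 in sham libraries. It rose by 4.18 ± 0.47 in untreated tumour against contralateral vessels (log2, limma adjusted p = 1.44e-06), and under triple therapy it was -0.77 ± 0.47 from untreated tumour (limma adjusted p = 0.219) and -0.79 ± 0.47 from dual therapy (limma adjusted p = 0.461). Ccl24 (eotaxin-2), named after its values were seen, scored 21, 16 and 30 in triple therapy libraries, 28, 44 and 1 in dual therapy libraries and 49, 165 and 27 in untreated tumour libraries. With all libraries in the fit, its differences passed the test in none of these comparisons, nor for dual therapy against untreated tumour. Without dual therapy replicate 2, which left dual therapy scores of 28 and 1, Ccl24 passed for the latter (-3.01 ± 0.85, limma adjusted p = 0.0241).

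Of the other CC ligands, 11 of 14 were tested. In untreated tumour against contralateral vessels Ccl5, Ccl6, Ccl9, Ccl11, Ccl22 and Ccl25 rose and none fell, where the calls of Ccl9 and Ccl25 were lost without at least 1 of the 6 libraries compared. Under triple therapy against untreated tumour Ccl6 and Ccl9 fell and none rose, under dual therapy Ccl6 fell, and none passed the test between the therapies. Ccl6, a mouse ligand of Ccr1, scored 132, 126 and 93 in triple therapy libraries, 204, 177 and 209 in dual therapy libraries and 339, 483 and 285 in untreated tumour libraries. The 3 groups did not overlap, and Ccl6 fell by 1.63 ± 0.29 under triple therapy (log2, limma adjusted p = 0.000400) and by 0.87 ± 0.29 under dual therapy (limma adjusted p = 0.0394). The dual therapy call of Ccl6 was lost without any 1 dual therapy library, untreated tumour replicate 1 or untreated tumour replicate 2 (adjusted p = 0.0683 to 0.142), and the triple therapy call of Ccl9 without any 1 of the 6 libraries compared (adjusted p = 0.0505 to 0.122).

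The list of other CC receptors and decoys held 10 genes, and all were tested. In untreated tumour against contralateral vessels Ccr4, Ccr6, Ccr7, Ccr8, Ackr1 and Ackr2 rose and Ccr9 and Ccrl2 fell, where the calls of Ccr6, Ccr9 and Ackr2 were lost without at least 1 of the 6 libraries compared. Under triple therapy against untreated tumour the decoy receptors Ackr1 and Ackr2 fell and Ccrl2 rose. Ackr1, which carries chemokines across venules, scored 224, 325 and 71 in triple therapy libraries, 503, 184 and 222 in dual therapy libraries and 624, 474 and 539 in untreated tumour libraries, and fell by 1.64 ± 0.46 under triple therapy (log2, limma adjusted p = 0.00992). Ackr2, which scavenges inflammatory CC chemokines, scored 5, 26 and 3 in triple therapy libraries, 6, 3 and 7 in dual therapy libraries and 76, 31 and 40 in untreated tumour libraries. It fell under both therapies against untreated tumour, with a log2 difference of -2.43 ± 0.70 for triple therapy (limma adjusted p = 0.0125) and -2.94 ± 0.70 for dual therapy (limma adjusted p = 0.00601). The triple therapy calls of Ackr1 and Ackr2 were lost without triple therapy replicate 3 (adjusted p = 0.0740 and 0.0778), and that of Ackr2 also without triple therapy replicate 1 (0.0549) or untreated tumour replicate 1 (0.0657). Ccr8, the receptor of Ccl8, scored 12, 15 and 8 in triple therapy libraries, 5, 6 and 3 in dual therapy libraries and 7, 2 and 16 in untreated tumour libraries, and was at 0 or 1 in tumour-free libraries.

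**Figure D5:**
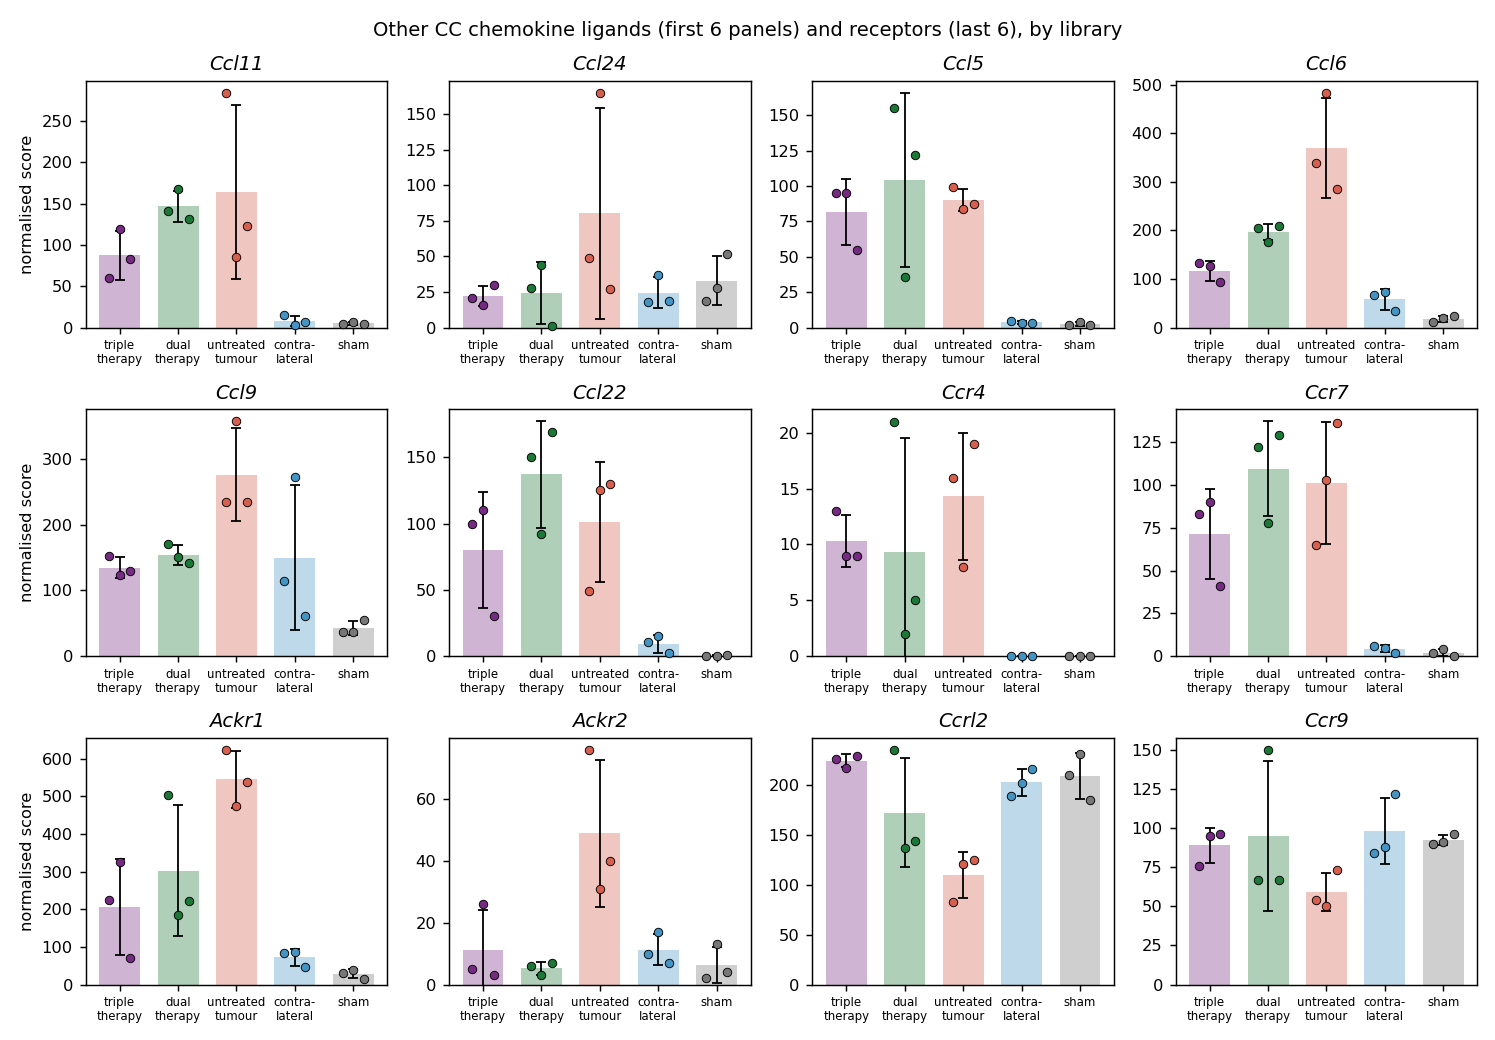
Normalised score (vertical axis, linear, starting at 0) of 6 other CC ligands and 6 other CC receptors or decoys in the 5 groups (horizontal axis). Points are libraries, bars are means and error bars are SD over 3 libraries, ending at 0 where they would pass below it. Ccl6 does not overlap among the 3 tumour groups, with means of 117 in triple therapy, 197 in dual therapy and 369 in untreated tumour libraries, whereas Ccrl2 is lowest in untreated tumour.

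Cytokines that can induce these chemokines and regulators of NF-kappaB and interferon signalling, among them the inhibitors Nfkbia and Tnfaip3, were tested as a list of 15, of which 13 passed the filter. In untreated tumour against contralateral vessels 8 rose, led by Il1b (5.40 ± 0.48, log2, limma adjusted p = 1.26e-07), with Tnf, Il1a, Il6, Ifng, Tnfaip3, Nfkb2 and Irf1, and Nfkbia fell. Il1b scored 44, 120 and 27 in triple therapy libraries, 121, 69 and 134 in dual therapy libraries, 186, 228 and 212 in untreated tumour libraries and 2 to 8 in tumour-free libraries. Under triple therapy against untreated tumour Il1b and Il6 fell (-1.97 ± 0.48 and -2.16 ± 0.76, limma adjusted p = 0.00425 and 0.0356), while Il33 and Nfkbia rose. The Il6 call was lost without triple therapy replicate 1, triple therapy replicate 3 or any 1 untreated tumour library (adjusted p = 0.0701 to 0.118), and that of Nfkbia without triple therapy replicate 3 (0.0553) or untreated tumour replicate 1 (0.0743). Under dual therapy Il33 and Nfkbia rose and none fell. Between the therapies none of the 13 passed the test.

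Of 12 myeloid growth factor genes and receptors 7 were tested. Csf1r, Csf2ra, Csf2rb and Csf2rb2 rose and Il34 fell in untreated tumour against contralateral vessels, and under triple therapy against untreated tumour Csf2ra fell and Il34 rose, with the Il34 call lost without triple therapy replicate 1, triple therapy replicate 3 or untreated tumour replicate 1 (adjusted p = 0.0646 to 0.120). Il5, the eosinophil growth factor, scored at most 10 and its receptor gene Il5ra at most 11 in any library, so neither was tested. Of 18 genes that signal or adhere downstream of chemokine receptors, 14 rose and Arrb1 fell in untreated tumour against contralateral vessels. Under triple therapy against untreated tumour Grk6, Fgr, Vav1, Itgam and Itga4 fell and Grk2 rose, of which only the Itga4 call held without each single library. Itga4, the integrin chain that lets monocytes and eosinophils bind Vcam1, fell by 1.03 ± 0.16 under triple therapy (log2, limma adjusted p = 8.70e-05) and by 0.92 ± 0.16 under dual therapy (limma adjusted p = 0.000554).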

How the data were processed

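Per the labels' protocols, microvessel RNA was column-purified with DNase treatment, and stranded total RNA libraries were made from 100 ng of it. The submitters' processing notes name STAR 2.4.0a, featureCounts 1.4.5-p1 of Subread and DESeq2 1.62, with build GRCm38 (mm10). The deposited score is a normalised value by the authors: whole numbers that behave as reads scaled by 1 factor per library and rounded. The value of 1 read, estimated from the gaps between low scores, was 0.656 to 1.86 units, and on 9 simulated factors the largest error was 0.004. Estimated reads are approximate, and intervals and floors from them cover counting error only.

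The 9 genes and all gene lists were chosen with earlier results of these data known. Log2(score + 1) values of the 19668 genes that reached 10 in 3 or more libraries (7506 left out) were fitted with limma's trend method (version 3.58.1, R 4.3.3), 1 mean per group over 15 libraries, and p-values adjusted by Benjamini and Hochberg over all genes of each of the 10 comparisons. Adjusted p below 0.05 was called. Such fold changes understate the change of low genes. On data simulated for triple therapy against untreated tumour, 32.8% of genes changed 2-fold and 0.117% of unchanged genes were called. That simulation changed only a small set of genes and gave every gene the same fixed spread. In the data 6340 genes were called in this comparison, so the simulated shares may not hold for it. Of the other lists, up to 4 genes with the smallest adjusted p were eligible to be named, or, with none called, the 2 of highest mean, together with the listed markers. A few genes of these lists are not reported here and were left out of their counts and sums. Alternatives were another pseudocount, filters, scalings, voom, array weights, only the 6 libraries compared, a replicate block and leaving out libraries. Leaving out libraries kept the gene set, the 6-library fits were filtered anew and voom kept the authors' scaling, details settled after first outputs were seen.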

Additional observations from a re-analysis of the deposited data

How the results depend on the processing

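Over 2051 alternative values of the 8 tested genes no called fold change reversed, 1965 kept their side of the threshold, 51 lost a call and 35 gained one. Among named list genes without single libraries, chosen after seeing the data, 57 values lost a call and 32 gained one. For dual therapy against untreated tumour, 1 of the 8 genes was called, instead of 0, with pseudocount 5, endothelial identity scaling, voom, only the 6 libraries compared and the replicate block, each time Ccr1. For triple against dual therapy, 0 instead of 1 were called with endothelial identity scaling (Ccr3 adjusted p = 0.0873) and voom (0.0656). The same held with untreated tumour replicate 2 and dual therapy replicate 2 left out (0.0853) and, with contralateral replicate 2 as well, 3 libraries left out (0.0667). Those last 2 sets were chosen after seeing the data and kept untreated tumour replicate 1. For contralateral against sham vessels 2 were called with array weights, Ccl2 and Ccl8. Leaving out each library in turn gave 2 to 4 calls for triple therapy against untreated tumour, 0 to 1 for dual therapy against untreated tumour, 0 to 1 for triple against dual therapy, 5 to 8 for untreated tumour against contralateral, 8 in every case against sham, 0 to 1 for contralateral against sham, 2 to 3 and 3 to 5 for triple and dual therapy against contralateral, and 5 to 7 and 6 to 8 against sham. Deviations of same-numbered libraries correlated weakly, at -0.130 to 0.103. For dual therapy against untreated tumour, dual therapy against contralateral and contralateral against sham vessels, every replicate matched best with the same number. In the other comparisons some or no replicates did. With 3 libraries per group, these values cannot decide whether replicate numbers pair the libraries, such as untreated tumour and contralateral libraries of the same mice. With the replicate block, Ccr1 was called against untreated tumour under triple therapy (adjusted p = 0.0394) and dual therapy (0.0495). Over all genes, triple against dual therapy gave 171 calls, and 0, 8, 327, 90 and 82 with endothelial identity scaling, only the 6 libraries, array weights, the 2 libraries and the 3 libraries left out (0 to 403 without single libraries). Contralateral against sham vessels gave 85 calls, and 44, 736, 631, 208 and 170 in the same order (22 to 177). Dual therapy against untreated tumour gave 4377 calls, and 2209 with only the 6 libraries (2844 to 4649), triple therapy against contralateral 978, and 1850 with array weights (595 to 1162), dual therapy against contralateral 2518, and 1621 with endothelial identity scaling (1587 to 2983), and triple therapy against sham 1913, and 1213, 3139 and 3224 with endothelial identity scaling, only the 6 libraries and array weights (1103 to 2268). Ccl3, Ccl4 and the triple therapy values of Ccr3 are limited by depth, with at most 38 estimated reads in a group.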
